A study of Bos taurus with 9 samples.

Results

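Cytochrome c, the product of the gene CYCS, was described in cloned cattle embryos from the 2 rows that carry this name, out of 17258 rows used over 9 libraries. The rows are ENSBTAG00000022613.3, called the main row here, and ENSBTAG00000023823.1, called the second row. The morula files name both CYCS, and the 8-cell files name the main row CYCS and the second row LOC100847700. They were chosen by their values in KDM6A and control morulae, where the second row was far higher after KDM6A mRNA and the main row was lower, so that contrast is described with no test.

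All embryos were Bos taurus clones produced by somatic cell nuclear transfer (SCNT): an egg without its own chromosomes was fused with a donor cell. The donor cells were fibroblasts grown from 1 female Holstein fetus, and the eggs came from abattoir ovaries. One group of 3 libraries came from day 5 morulae of embryos injected with mRNA for wild-type bovine KDM6A, a histone H3K27 demethylase, 1 h after activation. The control group of 3 libraries came from day 5 SCNT morulae with no injection, so it holds no embryo injected with another mRNA. Each morula library was a pool of 5 embryos. A further 3 libraries came from SCNT 8-cell embryos without KDM6A, taken from an earlier series, so stage and source cannot be told apart. Nothing in the labels says that pools of a group were made on separate days, and the p-values reflect the spread between these pools, which may be technical in part.

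Cytochrome c is a small heme protein of the space between the mitochondrial membranes. It carries electrons from respiratory complex III to complex IV, and when it leaks into the cytosol it joins APAF1 in the apoptosome, which activates caspase 9. Mammalian genomes hold many retrocopies of CYCS, intronless copies made from its mRNA, and reads from such near-identical sequences are hard to assign. In cattle the embryo's own genome becomes active around the 8-cell stage, and respiration increases towards the blastocyst.

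Values are FPKM, fragments scaled to transcript length and library size, and sequencing depth is unknown. Between 8893 and 9686 of the 16129 rows shared by all libraries reached 1 FPKM, and log2(FPKM + 1) correlated at 0.973 to 0.993 between libraries of 1 group. In controls KDM6A stood at 10.72, 13.86 and 10.74 FPKM, against 35.65, 87.58 and 79.44 FPKM in injected morulae, where injected and embryonic mRNA cannot be separated. All 8 pluripotency and morula markers averaged at least 1 FPKM in both morula groups, with summed levels of 507 to 544 FPKM in controls and 420 to 602 FPKM in KDM6A morulae. In 8-cell embryos 6 of the 8 did, and the sums of 436 to 512 FPKM overlapped both morula groups. At a limma adjusted p under 0.05, 6 of the 8 were higher and 2 lower in control morulae than in 8-cell embryos (all rows 42.7% and 27.1%). The 8 donor fibroblast markers summed to 10.4 to 32.8 FPKM in morulae, and the 6 cumulus markers measured to at most 5.93 FPKM, with no marker of either list at 0 throughout a morula group.

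The main row was among the most abundant transcripts of every library. It stood at 3413.29, 3748.45 and 4385.43 FPKM in control morulae, at 2778.42, 2592.27 and 2750.27 FPKM in KDM6A morulae and at 1998.22, 1636.63 and 1550.41 FPKM in 8-cell embryos. The 3 groups did not overlap, and the order from high to low was control morulae, KDM6A morulae, 8-cell embryos. In these pools, fewer cells of a type and less RNA per cell cannot be told apart. By FPKM the row ranked 21st to 26th of 16713 rows in the controls, 37th to 54th in KDM6A morulae and 57th to 69th of 16674 rows in 8-cell embryos.

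The second row was a minor row in control morulae and a well expressed one in injected morulae. In the controls it stood at 8.13, 17.64 and 19.18 FPKM, against 452.04, 336.47 and 719.46 FPKM in KDM6A morulae. In 8-cell embryos it was at 5.7 and 0.38 FPKM and was listed at 0 in replicate 3. Every KDM6A library was above every other library, and the lowest of them was 17.5 times the highest control. The spread between libraries was wide in both morula groups, with an SD of 39.9% of the mean in controls and 39.1% in KDM6A morulae, against 12.8% and 3.71% for the main row. KDM6A replicate 1, the injected library with the least KDM6A transcript, had neither the lowest nor the highest value of the second row. A relation between the KDM6A level and the second row was not tested. By FPKM the row ranked between 3516 and 5523 from the top in controls and between 250 and 466 in KDM6A morulae.

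**Figure D1:**
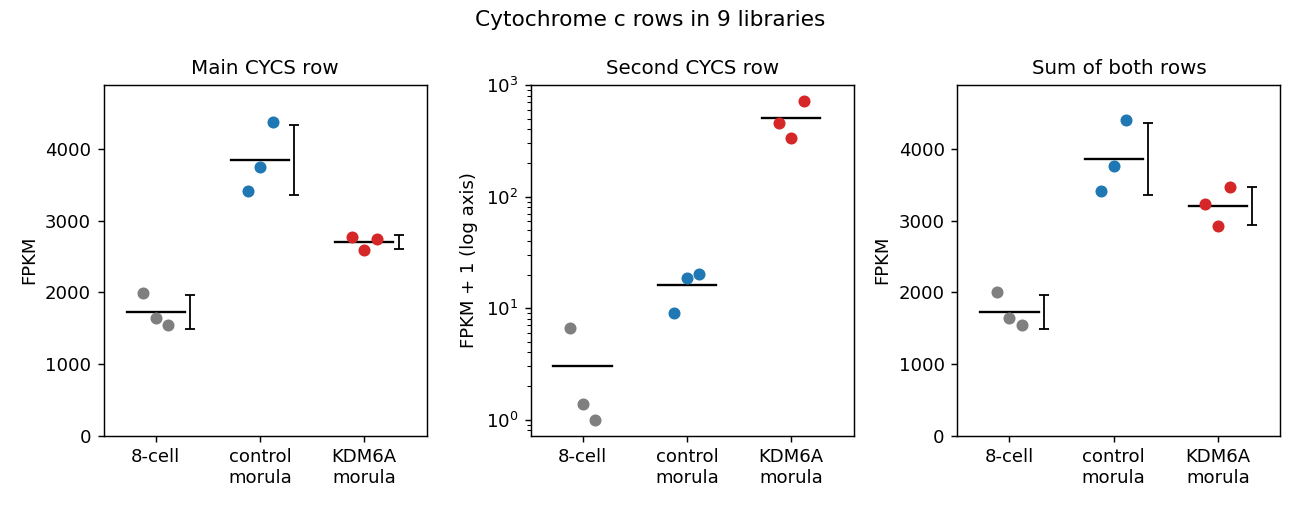
FPKM of the main row, the second row and their sum in 8-cell embryos, control morulae and KDM6A morulae. Points are libraries, lines are group means and bars are SDs (n = 3), with the second row shown as FPKM + 1 on a log axis and no SD. Control and KDM6A morulae are apart in both rows, and in the sum the highest KDM6A library (3469.73 FPKM) lies above the lowest control (3421.42 FPKM).

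In KDM6A against control morulae the rows differed in opposite directions, and neither value is tested. The main row averaged 3849 ± 494 FPKM (SD, n = 3) in controls and 2707 ± 100.3 FPKM in KDM6A morulae, a difference of -0.50 (SE 0.118) on the log2(FPKM + 1) scale. The second row averaged 14.98 ± 5.98 FPKM and 503 ± 196 FPKM, a difference of 4.99 (SE 0.329). Over the 9777 rows tested the median difference was -0.012, the second row had the highest difference, the next highest was 3.68, and 6.70% of rows lay below the main row. Groups did not overlap in 15.7% of those rows. At a limma adjusted p under 0.05, 0.123% of rows were called higher and 0.0409% lower. Since this contrast chose the rows, nothing is read from those shares. Markers of 8-cell genome activation also stood apart between the morula groups: the 3 measured summed to 69.1 to 133 FPKM in controls and 150.3 to 195 FPKM in KDM6A morulae, none was called, and their part in the CYCS values was not tested.

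Adding the rows brought the morula groups closer. The sum was 3421.42, 3766.09 and 4404.61 FPKM in the 3 controls and 3230.46, 2928.74 and 3469.73 FPKM in the 3 KDM6A libraries. These ranges overlapped, since KDM6A replicate 3 was above control replicate 1. The mean sum was 3864 ± 499 FPKM in controls and 3209.6 ± 271 FPKM in KDM6A morulae, a difference of -0.26 (SE 0.124) on the log2(FPKM + 1) scale. Without control replicate 3, the highest control, it was -0.16. In FPKM, KDM6A minus control, the main row differed by -1142 and the second row by 488, which is 42.7% of the size of the former. How reads matching both rows were divided was not given in the sources used here, and a sum of FPKM relies on the transcript lengths used by the authors, so the level of either row alone is uncertain.

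The share of the second row in the sum set the injected morulae apart from the rest. It was 14.0%, 11.5% and 20.7% in KDM6A morulae and 0.238%, 0.468% and 0.435% in controls. In 8-cell embryos it was 0.284% and 0.0232%, and 0 in replicate 3. The control and 8-cell ranges overlapped, and the highest share outside the KDM6A group was 0.468%. The control share averaged 0.380% ± 0.125 and the 8-cell share 0.103% ± 0.158 (SD, n = 3 each). The share in KDM6A morulae averaged 15.4% ± 4.78. These shares are built from the values that chose the rows and are given with no test.

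**Figure D2:**
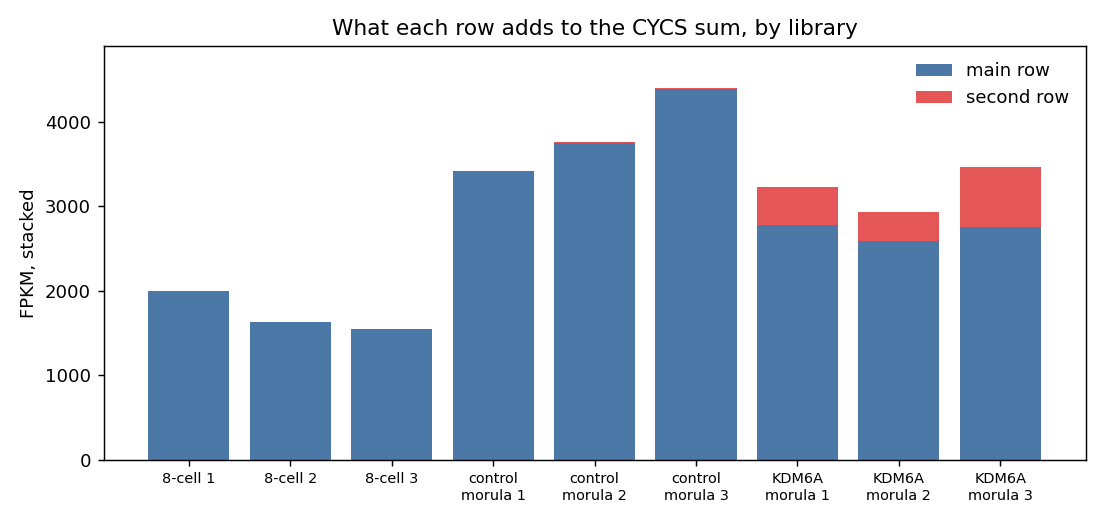
FPKM of the main row and the second row stacked for each of the 9 libraries, with the full bar giving the sum. The second row is visible as a band of 336 to 719 FPKM in the 3 KDM6A morula libraries and is at most 19.18 FPKM in the other libraries.

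Both rows and their sum were higher in morulae than in 8-cell embryos. These comparisons did not choose the rows, although the morula values they use did, for the main row as for the second. They also share the 8-cell libraries with each other. They are therefore no independent support, and the p-values of the main row and the sum are read as descriptions. The main row averaged 1728 ± 238 FPKM in 8-cell embryos, and control morulae were 2.23-fold higher, a log2 difference of 1.16 (SE 0.184, limma adjusted p = 0.000342). That is a common outcome: of 10048 rows 42.7% were called higher and 27.1% lower (69.8% in all), groups did not overlap in 74.5%, the median difference was 0.35, and 29.5% of rows lay above the main row. KDM6A morulae were 1.57-fold above 8-cell embryos, a log2 difference of 0.66 (SE 0.160, limma adjusted p = 0.00396). There, of 10024 rows 41.1% were called higher and 25.6% lower (66.7% in all), groups did not overlap in 71.3%, and the median was 0.34. This last call was lost under quantile normalization (0.27, adjusted p = 0.106) and median-of-ratios scaling (0.39, adjusted p = 0.0580), which moved the median of all rows to 0.036 and 0.11. Oocyte markers moved with stage as well, with 8 of 9 measured and sums of 3711 to 9026 FPKM in 8-cell embryos against 20.1 to 448 FPKM in control morulae, and markers of other cells did too. Fibroblast markers summed to 17.05 to 69.3 FPKM in 8-cell embryos against 12.02 to 30.5 FPKM in control morulae, and cumulus markers to 15.3 to 26.01 FPKM against 3.94 to 5.93 FPKM. LUM, FBN1, HAS2 and TNFAIP6 of these lists were called lower in control morulae and THY1 higher, named after their values were seen, and the part of these markers in the CYCS differences was not tested.

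The second row was higher in control morulae than in 8-cell embryos by 2.85 on the log2(FPKM + 1) scale (SE 0.628), given with no test. The lowest control, 8.13 FPKM, was 1.43 times the highest 8-cell library, 5.7 FPKM. The row passed the filter of 1 FPKM in 3 libraries through the control morulae, with 1 of 3 8-cell libraries above it, and its morula values had entered the choice of the rows. The size of the difference depends on the pseudocount (4.43 with 0.1). In KDM6A morulae it was higher than in 8-cell embryos by 7.84 (SE 0.589), again a description. The sum was 2.23-fold higher in control morulae than in 8-cell embryos (1.16, SE 0.184, limma adjusted p = 0.000339) and 1.85-fold higher in KDM6A morulae (0.90, SE 0.164, adjusted p = 0.000664). Both calls of the sum were kept under quantile normalization and under median-of-ratios scaling. The sum holds morula values that had entered the choice of the rows, so its p-values are descriptions too.

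The files carry other names on more than 1 row, and CYCS had the widest gap among those compared. In the morula files 35 symbols were shared by 74 rows, and for 15 symbols every row averaged at least 5 FPKM in a morula group. The gap between the highest and lowest row difference, KDM6A minus control, was 5.49 for CYCS on the log2(FPKM + 1) scale, a description, since CYCS was chosen on this contrast. The median gap of these 15 symbols was 0.263, and rows of 8 of them had opposite signs, so opposite signs alone were common. TPT1, which encodes a translationally controlled tumour protein, came next with 2.08, followed by CALM (calmodulin) with 0.74, the ribosomal protein RPL23A with 0.73 and the complex IV subunit COX7C with 0.45. None of the rows of these other 4 symbols was called between the morula groups.

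Rows of TPT1 traded places among libraries of 1 group, which the CYCS rows did not. In the 3 controls one TPT1 row stood at 740.86, 331.3 and 479.73 FPKM and the other at 460.3, 1224.31 and 824.29 FPKM, so the higher row was not the same one in each control. In KDM6A morulae these rows stood at 550.45, 778.12 and 577.27 FPKM and at 519.14, 163.78 and 151.29 FPKM. The main CYCS row exceeded the second row in all 9 libraries, by 3.82 to 7.70 times in KDM6A morulae and by 212 to 420 times in controls. One of 3 COX7C rows, ENSBTAG00000040564.1, was at 168.42 to 266 FPKM in the 6 morula libraries and listed at 0 in all 3 8-cell libraries, while the other COX7C rows were above 0 there. Whether the source series bears in the same way on the low 8-cell values of the second CYCS row was not tested.

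**Figure D3:**
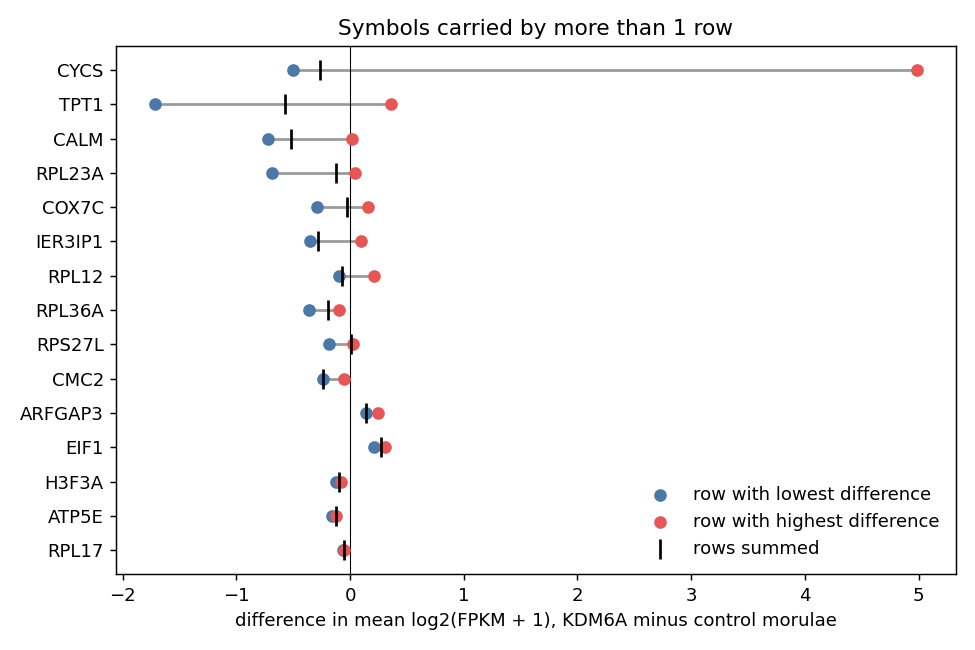
Difference in mean log2(FPKM + 1), KDM6A minus control morulae, for the 15 symbols carried by more than 1 row with every row at a mean of at least 5 FPKM in a morula group. Coloured points are the rows with the lowest and highest difference, and the black tick is the value after the rows were summed. CYCS has the widest gap (5.49), and its sum lies at -0.26.

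LOC100847700, the name of the second row in the 8-cell files, is a protein-coding entry of the RefSeq annotation of ARS-UCD2.0. The authors' build was UMD3.1, so no coordinates are given. In RefSeq CYCS lies on a different chromosome, near OSBPL3, which was looked at after the values of the rows were known. OSBPL3 was at 4.21 to 5.03 FPKM in controls and 2.68 to 4.74 FPKM in KDM6A morulae (-0.31, limma adjusted p = 0.588).

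CYCT, annotated as a separate gene and named for the testis form of cytochrome c, followed neither row, and it was singled out after its values were seen. It stood at 74.54, 86.01 and 134.86 FPKM in 8-cell embryos, at 11.69, 5.04 and 8.31 FPKM in control morulae and at 4.33, 6.12 and 5.98 FPKM in KDM6A morulae. It was lower in control morulae than in 8-cell embryos, with a log2 difference of -3.43 (limma adjusted p = 1.32e-05), while the main CYCS row was higher. Between the morula groups its values overlapped (-0.48, adjusted p = 0.489).

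The genes that make, import, use and release cytochrome c were taken as 9 lists of 116 genes, of which 104 had a single row. None of the 91 tested was called between KDM6A and control morulae (limma, all rows 0.164%), and 7 had an unadjusted p under 0.05, where 12.7% of all rows did. Their median log2 difference was -0.094, with 39 above 0. Without KDM6A replicate 1, 6 of them were called, all lower. That fit also raised the calls over all rows from 16 to 725, with 365 higher and 360 lower. Control morulae and 8-cell embryos differed in 63 of 93 list genes (67.7%, all rows 69.8%), with 50 higher and 13 lower in morulae. KDM6A morulae and 8-cell embryos differed in 60 of 93 (64.5%, all rows 66.7%), 46 higher and 14 lower. The share of calls among these genes is near that of all rows, and the lists are described by their members.

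Complex III, which passes electrons to cytochrome c, was higher in control morulae than in 8-cell embryos in all 9 members tested, with a median log2 difference of 2.39 against 0.35 for all rows. Of all rows, 69.8% were called in this comparison, 42.7% of them all as higher and 27.1% as lower. The call held for all 9 complex III genes under quantile normalization and under median-of-ratios scaling. CYC1, cytochrome c1, the heme subunit that meets cytochrome c, rose from 11.8 ± 7.25 to 225 ± 43.6 FPKM, and UQCR11, a small subunit, rose from 20.96 ± 2.19 to 479.7 ± 103 FPKM. UQCRH, the hinge protein, rose from 196 ± 25.6 to 1127 ± 133 FPKM, and UQCRC1, a core subunit, from 9.96 ± 5.37 to 131 ± 17.3 FPKM. The limma adjusted p of these 4 was at most 8.55e-06. On the FPKM scale the main CYCS row stood above all 9 in control morulae, the nearest being UQCRB at 2026 ± 209.9 FPKM.

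Between the morula groups 8 of the 9 complex III genes had lower means in KDM6A morulae and the median log2 difference was -0.20, with none called. UQCRB had the smallest p and stood at 2026 ± 209.9 FPKM in controls and 1608 ± 140.3 FPKM in KDM6A morulae (-0.33, limma adjusted p = 0.319). CYC1 stood at 225 ± 43.6 FPKM in controls and 167 ± 57.1 FPKM in KDM6A morulae (-0.46, adjusted p = 0.43), and it was called lower once KDM6A replicate 1 was left out (-0.72, adjusted p = 0.0468). Over all rows that fit gave 725 calls, 360 of them lower, against 16 with all replicates.

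Complex IV, which takes electrons from cytochrome c, had 12 of 16 tested members higher in control morulae than in 8-cell embryos and 2 lower, with a median log2 difference of 1.47. That is 87.5% called, against 69.8% of all rows (42.7% higher and 27.1% lower), whose median difference was 0.35. COX5B rose from 471 ± 95.9 to 3713 ± 566 FPKM, COX5A from 355 ± 88.1 to 1880.0 ± 201 FPKM, COX8A from 306 ± 68.8 to 1179 ± 61.2 FPKM and COX7A2 from 1466 ± 138 to 5823 ± 1338 FPKM. COX4I1, a nuclear-encoded subunit, rose from 403 ± 95.5 to 1123 ± 67.3 FPKM and COX6A1 from 692 ± 124 to 1893 ± 114 FPKM. The 2 that fell, named after their values were seen, were COX7A2L, a supercomplex assembly factor (from 459 ± 35.2 to 289 ± 14.4 FPKM), and COX6B2, an isoform best known from testis (from 14.8 ± 3.91 to 7.08 ± 2.09 FPKM). The calls of COX1 and MT-CO2, both encoded in mitochondrial DNA, were lost under median-of-ratios scaling (adjusted p = 0.148 and 0.359). MT-CO2 also lost its call on the TPM scale (adjusted p = 0.102) and kept it in 3 of 6 fits with a replicate left out, and COX6B2 kept its call in 5 of 6.

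No complex IV member was called between the morula groups, and the median log2 difference was 0.041. NDUFA4, a subunit once counted with complex I, stood at 4913 ± 334 FPKM in controls and 3919 ± 178 FPKM in KDM6A morulae (-0.33, limma adjusted p = 0.283). COX3, encoded in mitochondrial DNA, stood at 11503 ± 1415 FPKM in controls and 14523 ± 1695 FPKM in KDM6A morulae (0.34, adjusted p = 0.307) and was called higher under quantile normalization (0.53, adjusted p = 0.0118). COX4I1 and COX6A1 stood at 1209.9 ± 24.4 and 1978 ± 129.8 FPKM in KDM6A morulae, with log2 differences from controls of 0.11 and 0.06.

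Of 16 complex IV assembly factors tested, 6 were higher in control morulae than in 8-cell embryos and none was lower. That is 37.5% called, below both the 69.8% of all rows called in either direction and the 42.7% called higher. Under median-of-ratios scaling 1 was called lower. COX14 rose from 112 ± 11.8 to 931 ± 143 FPKM, COA1 from 37.03 ± 7.84 to 117 ± 11.95 FPKM, COX20 from 6.54 ± 2.103 to 21.2 ± 1.98 FPKM and the copper chaperone COX17 from 304 ± 88.3 to 743 ± 127 FPKM. Between the morula groups COA1 stood at 117 ± 11.95 FPKM in controls and 88.3 ± 10.2 FPKM in KDM6A morulae (-0.40, limma adjusted p = 0.34). COX11, which helps to place copper in complex IV, stood at 29.1 ± 1.46 FPKM in controls and 19.8 ± 7.61 FPKM in KDM6A morulae (-0.60, adjusted p = 0.36).

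Heme synthesis and attachment genes were higher in control morulae than in 8-cell embryos in 6 of 8 tested, with none lower (1 lower under quantile normalization) and a median log2 difference of 2.30. With 75% called, the list is near the 69.8% of all rows (42.7% higher and 27.1% lower), whose median difference was 0.35. ALAD, an early enzyme of the heme pathway, rose from 3.64 ± 0.727 to 91.2 ± 11.4 FPKM. ALAS1, which starts the pathway, rose from 3.07 ± 1.09 to 18.7 ± 1.49 FPKM, and PPOX, a late enzyme, from 1.29 ± 0.777 to 9.95 ± 2.86 FPKM. HCCS, the lyase that joins heme to cytochrome c, rose from 92.03 ± 25.8 to 161 ± 14.2 FPKM (0.84, limma adjusted p = 0.00841). In KDM6A morulae HCCS stood at 130.2 ± 13.3 FPKM, a difference from controls of -0.31 (adjusted p = 0.425). ALAD stood at 91.2 ± 11.4 FPKM in controls and 73.1 ± 27.5 FPKM in KDM6A morulae (-0.37, adjusted p = 0.525).

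Among 8 tested import genes, 5 were higher in control morulae than in 8-cell embryos and none was lower. The share called was 62.5%, against 69.8% of all rows (42.7% higher and 27.1% lower). The call of TOMM40, the translocase channel, was lost under quantile normalization (adjusted p = 0.112), on the TPM scale and under median-of-ratios scaling. TOMM22, a receptor of the outer membrane translocase, rose from 43.01 ± 18.9 to 150.3 ± 16.7 FPKM. CHCHD4, the oxidoreductase of intermembrane space import, rose from 61.3 ± 6.09 to 119 ± 8.26 FPKM, and its binding partner AIFM1 from 1.28 ± 0.618 to 8.603 ± 2.77 FPKM. CHCHD4 stood at 82.1 ± 15.6 FPKM in KDM6A morulae (-0.55 against controls, limma adjusted p = 0.285). TOMM70A, another receptor, rose from 35.8 ± 13.3 to 69.9 ± 10.1 FPKM and stood at 47.6 ± 13.2 FPKM in KDM6A morulae (-0.57, adjusted p = 0.32). Of 3 other electron donors to cytochrome c tested, 2 were higher in control morulae than in 8-cell embryos (66.7% called, all rows 69.8%). Sulfite oxidase SUOX rose from 6.01 ± 0.334 to 30.6 ± 8.62 FPKM and GFER, which reoxidizes CHCHD4, from 11.7 ± 1.76 to 29.2 ± 4.22 FPKM. SHC1 was not called, at 4.24 ± 1.23 FPKM in 8-cell embryos and 4.08 ± 0.310 FPKM in control morulae (-0.02, limma adjusted p = 0.947).

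**Figure D4:**
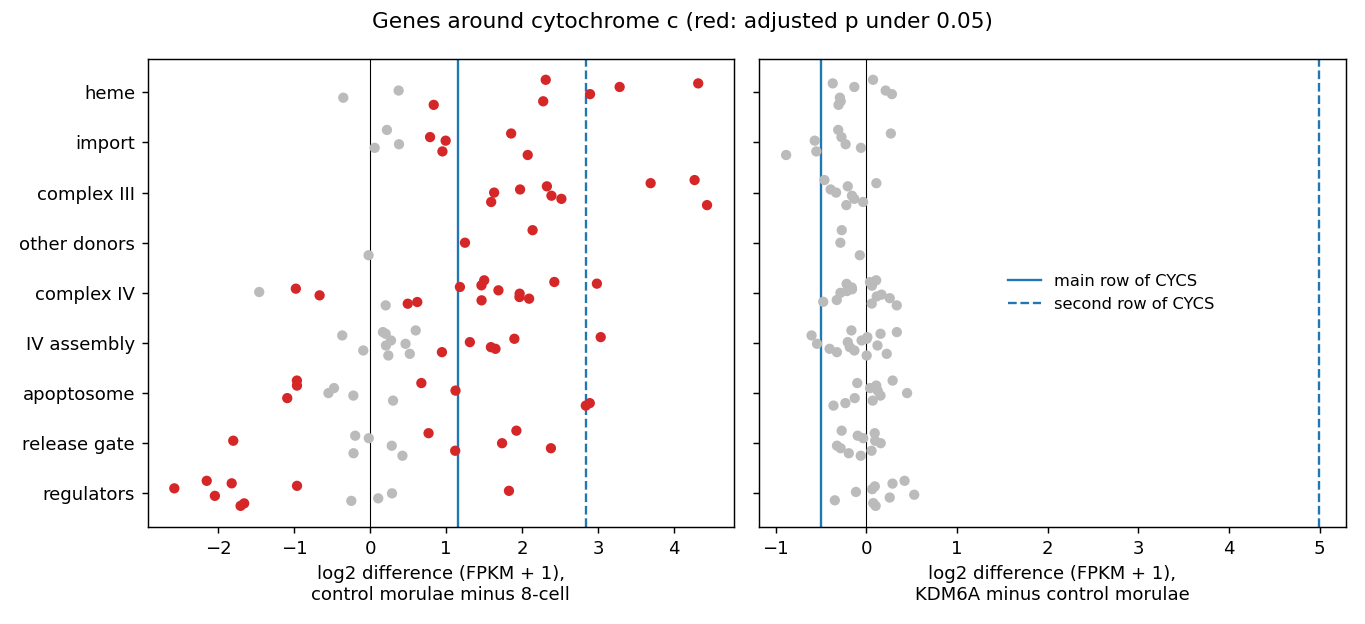
Log2 difference of each tested gene in the 9 lists around cytochrome c, control morulae minus 8-cell embryos on the left and KDM6A minus control morulae on the right, red where the limma adjusted p was under 0.05. Vertical blue lines mark the main and the second CYCS row. All 9 complex III genes are red and lie to the right of the main row on the left, and no gene is red on the right.

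The cell death side of cytochrome c showed mixed directions between stages. Of 11 apoptosome and caspase genes tested, 4 were higher and 3 lower in control morulae than in 8-cell embryos, against 42.7% higher and 27.1% lower of all rows. The balance turned to 3 higher and 6 lower under quantile normalization and 3 higher and 5 lower under median-of-ratios scaling. APAF1, the scaffold that binds cytochrome c, fell from 6.24 ± 1.09 to 2.72 ± 0.574 FPKM (-0.96, limma adjusted p = 0.00548). HTRA2 and ENDOG, proteins released along with cytochrome c, rose from 1.28 ± 0.686 to 15.6 ± 2.25 FPKM and from 1.87 ± 1.43 to 17.8 ± 2.52 FPKM. CASP6, a caspase, rose from 71.9 ± 9.15 to 157 ± 9.56 FPKM. CASP9, the initiator, rose from 1.42 ± 0.44 to 2.85 ± 0.558 FPKM (0.67, adjusted p = 0.0285), a call lost under quantile normalization (adjusted p = 0.368), on the TPM scale, under median-of-ratios scaling and in all but 2 of 6 fits with a replicate left out.

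No apoptosome or caspase gene was called between the morula groups. APAF1 stood at 3.63 ± 1.28 FPKM in KDM6A morulae (0.29 against controls, limma adjusted p = 0.655). CASP9 stood at 2.69 ± 1.24 FPKM (-0.10, adjusted p = 0.903). ENDOG stood at 13.9 ± 3.85 FPKM (-0.36, adjusted p = 0.512).

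At the outer membrane gate, 5 of 11 genes tested were higher and 1 lower in control morulae than in 8-cell embryos (54.5% called, all rows 69.8%). Under median-of-ratios scaling these were 4 higher and 3 lower. VDAC2, an outer membrane channel, rose from 60.2 ± 4.62 to 317 ± 25.3 FPKM, and BAD, which promotes cell death, rose from 36.6 ± 12.4 to 121 ± 15.8 FPKM. BCL2L11, which also promotes cell death, fell from 14.6 ± 6.65 to 3.23 ± 0.947 FPKM. BOK, a BAX relative, stood at 2.83 ± 0.615 FPKM in controls and was listed at 0 in all 3 8-cell libraries. BAX and BAK1, the pore formers that let cytochrome c out, averaged at most 0.81 FPKM in every group and were under the filter for testing. BCL2L1, which restrains them, stood at 8.29 ± 0.523 FPKM in controls and 9.03 ± 1.905 FPKM in KDM6A morulae (0.09, limma adjusted p = 0.886), and its higher level than in 8-cell embryos (0.77, adjusted p = 0.0247) lost its call under quantile normalization (adjusted p = 0.163), on the TPM scale, under median-of-ratios scaling and in all but 2 of 6 fits with a replicate left out.

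Regulators of nuclear respiratory genes were lower in control morulae than in 8-cell embryos in 7 of 11 tested, with 1 higher. Their share called, 72.7%, is near the 69.8% of all rows, where 27.1% were lower and 42.7% higher. NRF1, which is known to bind the CYCS promoter, fell from 14.4 ± 3.96 to 2.497 ± 1.03 FPKM (-2.15, limma adjusted p = 0.000168). GABPA fell from 452 ± 58.1 to 130.1 ± 37.8 FPKM and SP1 from 28.8 ± 2.91 to 8.41 ± 0.269 FPKM. TFAM, the mitochondrial transcription factor, fell from 177 ± 43.8 to 42.7 ± 14.2 FPKM, and the coactivator PPARGC1A from 7.603 ± 2.67 to 0.44 ± 0.485 FPKM. The 1 that rose, named after its values were seen, was the related coactivator PPARGC1B (from 0.533 ± 0.365 to 4.36 ± 0.611 FPKM). These calls also held under quantile normalization and under median-of-ratios scaling. Between the morula groups NRF1 stood at 2.497 ± 1.03 FPKM in controls and 3.55 ± 0.3798 FPKM in KDM6A morulae (0.42, adjusted p = 0.502) and TFAM at 42.7 ± 14.2 FPKM in controls and 63.7 ± 24.6 FPKM in KDM6A morulae (0.53, adjusted p = 0.493).

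The rows most like each CYCS row were found by Pearson correlation of log2(FPKM + 1) over the 9 libraries, among 7671 rows with a group mean of at least 5 FPKM. The points share groups and libraries, so the values are descriptions. For the main row these were CA6, a carbonic anhydrase (0.991), LSM3, a splicing protein (0.991), the complex I subunit NDUFA5 (0.985), the desmosome gene PKP2 (0.980) and KHDRBS3 (0.976). NDUFA5 stood at 1214.88, 1381.77 and 1580.43 FPKM in controls, at 1074.59, 1049.06 and 1016.05 FPKM in KDM6A morulae and at 617.09, 512.88 and 489.45 FPKM in 8-cell embryos, the same order of groups as the main row. For the second row they were KRTDAP (0.965), LOC509810 (0.952), the neuropeptide gene NMB (0.948), the growth factor binding protein IGFBP6 (0.947) and OSBPL11 (0.944). KRTDAP, an epidermal differentiation gene, stood at 2.39, 3.86 and 5.82 FPKM in controls and 11.46, 9.82 and 11.29 FPKM in KDM6A morulae, a log2 difference of 1.29 where that of the second row was 4.99. The 2 CYCS rows correlated with each other at 0.457 over the 9 libraries.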

How the data were processed

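RNA-seq values were analysed for 9 libraries in 3 groups of 3, grouped by their titles. The deposited files give FPKM for each row with 2 decimals, per the file headers. The submitters' processing notes list RSEM 1.2.12, Bowtie2 2.2.5, StringTie 1.0.4, HISAT 0.1.6 and bcl2fastq 2.16, with build UMD3.1. What each tool did, and how reads that match several rows were handled, was not given in the sources used here. Depth is unknown: no steps worth 1 read were visible in the lowest values, where the commonest ratio between libraries held at most 8.57% of values. A further 3038 rows found in only 1 control file were not used.

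Files were read with Python 3.11.15 and pandas 2.3.3, and figures drawn with matplotlib 3.10.9. Values were tested as log2(FPKM + 1) by limma 3.58.1 (R 4.3.3), with group means and a trended prior variance, on the 6 libraries compared. This scale understates the change of low genes. Rows needed at least 1 FPKM in 3 libraries, and p-values were adjusted by Benjamini-Hochberg over all rows, with a threshold of 0.05. The sum was fitted in a table where it replaced both CYCS rows. The script was tested on simulated data. Genes with several rows were left out of list counts.

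Named are, per list, up to 4 genes with the smallest p between control morulae and 8-cell embryos and up to 2 between morula groups, a set always given, the 5 rows most like each CYCS row, and the 5 shared symbols with the widest gap. Some genes this rule would name are not reported here. The members and lists were chosen with earlier results of these data known. Alternatives were other pseudocounts, filters and scalings, all 9 libraries in 1 fit, rows of a symbol summed, a block for the replicate number, and leaving out each replicate.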

Additional observations from a re-analysis of the deposited data

How the results depend on the processing

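The direction of both rows and of the sum held in every comparison under every alternative run. The main row in KDM6A morulae against 8-cell embryos was no longer called after quantile normalization (0.27, limma adjusted p = 0.106) or median-of-ratios scaling (0.39, adjusted p = 0.0580). The call of the main row in control morulae and both calls of the sum were kept. All these calls are descriptions, since their morula values had entered the choice of the rows. Between morula groups the difference of the main row ran from -0.58 to -0.40, that of the second row from 4.63 to 5.24, and that of the sum from -0.35 to -0.16 over the alternatives. Genes called around cytochrome c between morula groups numbered 1 after quantile normalization (COX3) and 0 to 6 over the replicates left out, the 6 being ALAD, AIFM1, COX11, CYC1, TOMM70A and COX1, all lower, without KDM6A replicate 1. Over all rows that comparison gave 16 calls, 25 on the TPM scale, 28 after quantile normalization, 10 with all 9 libraries, 0 with no filter, 1 with the replicate block, and 1 to 725 over the replicates left out. The 725 calls, 365 higher and 360 lower, came without KDM6A replicate 1. Control morulae held the higher value in 61.2% of calls against 8-cell embryos, and in 50.8% after quantile normalization. For KDM6A morulae these were 61.6% and 50.5%. Replicate numbers did not pair the libraries (correlations of deviations between same-numbered control and KDM6A libraries of -0.217, -0.242 and 0.160), and the block changed no call of the main row or the sum. The share of the second row was recomputed only with replicates left out, since scaling a library cannot change it, and quantile normalization, the block and other pseudocounts were not run for it. Depth is unknown, so counting error is unknown too.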
